A study of Mus musculus with 67 samples.

Results

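Proteasome genes were followed in mouse liver, as the rows whose symbol is Psma, Psmb, Psmc, Psmd or Psme followed by a number. These were 43 of the 45808 gene rows in the deposited table, chosen by symbol and not by a measured value. All are called subunit genes here, though Psmd5, Psmd9 and Psmd10 are assembly chaperones and Psme1 to Psme4 form other caps. Of them 41 had a mean of at least 1 FPKM (fragments scaled to exon length and library size) over all libraries and were tested among the 9958 genes that passed that filter. The remaining pair were Psma8, an alpha subunit of germ cells with a mean of 0.824 FPKM, and Psmb11, the thymus catalytic subunit, listed at 0 FPKM in every library. The livers came from C57BL/6 mice of 24 weeks on a high-fat diet for 12 weeks, eaten ad libitum or only in a daily window (restricted feeding), so no group here ate normal chow. No source read for these results states the hours of the window, the Cre driver of the liver knockouts or the exons deleted. The 4 genotypes comprised wild type (WT), Bmal1-liverKO (here Bmal1LKO, lacking the clock activator in liver), Cry1Cry2 double KO (CryDKO, lacking both cryptochrome repressors) and Rev-erbα/β-liverdoubleKO (ReverbLDKO, lacking the repressors Nr1d1 and Nr1d2 in liver). WT had 12 ad libitum and 11 restricted libraries, 2 at each of zeitgeber time (ZT) 4, 8, 12, 16, 20 and 24 except 1 restricted library at ZT12. Bmal1LKO had 6 libraries for each feeding at the same times, and CryDKO and ReverbLDKO had 8 each, 1 every 3 h from ZT3 to ZT24. The labels leave unsaid whether each library is a different mouse, so p-values reflect only the spread among these libraries, part of which may be technical.

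The proteasome degrades proteins tagged with ubiquitin. Its barrel-shaped 20S core has outer rings of alpha subunits, which gate the entrance, and inner rings of beta subunits, of which Psmb5, Psmb6 and Psmb7 cut peptide bonds. In cells exposed to interferon, Psmb8, Psmb9 and Psmb10 take their places and form the immunoproteasome, which makes peptides for display on MHC class I. The 19S cap recognises ubiquitin, removes it and unfolds the substrate through a ring of Psmc ATPases, and Psme proteins form other caps. In many cells the subunit genes are induced together by the transcription factor Nfe2l1 through antioxidant response elements in their promoters.

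Because a shared element is part of the textbook account of these genes, the promoters were searched for the core TGACNNNGC on both strands. In the 300-base window from 250 bases before to 50 bases after the RefSeq gene start, 6 of the 36 subunit genes with a promoter sequence held it (16.7%), against 3781 of 27025 genes in all (14.0%). The 6 matches are printed here with up to 20 bases on each side, 5′ to 3′ on the strand of the gene, with the match in capitals. A match is a run of letters and says nothing of binding, and no binding data were used.
Psmb5, chr14:54618014-54618062: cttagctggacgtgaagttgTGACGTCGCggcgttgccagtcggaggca
Psmb6, chr11:70525328-70525376: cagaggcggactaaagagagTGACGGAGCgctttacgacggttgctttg
Psmd9, chr5:123228139-123228187: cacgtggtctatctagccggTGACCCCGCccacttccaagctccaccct
Psmc6, chr14:45329577-45329625: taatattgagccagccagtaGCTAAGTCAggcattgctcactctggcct
Psmd12, chr11:107479278-107479309: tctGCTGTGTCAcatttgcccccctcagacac
Psme4, chr11:30771748-30771796: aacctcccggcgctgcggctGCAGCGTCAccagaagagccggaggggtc
These coordinates are of GRCm38.p6, and the last 3 sequences hold the match on the opposite strand.

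Library depth, worked out from the steps between low FPKM values, ran from 9.14 to 36.1 M reads, and the FPKM of a library summed to between 386198 and 1097495. Hepatocyte markers were abundant everywhere, summing to at least 34375 FPKM over 8 genes in each library. Ad libitum and restricted medians of that sum were 39909 and 37861 FPKM in Bmal1LKO, and 63632 and 62003 in WT. They were 67491 and 73260 in CryDKO and 50672 and 61383 in ReverbLDKO. The highest Bmal1LKO library (47121) lay below the lowest WT library (51405), and the cause was not tested. WT libraries differed from one another more than the mutants' did. The slope, over the GC content of a gene, of its log2 deviation from the mean of all libraries had a median of 0.30 per 10 percentage points in WT ad libitum and -0.56 in WT restricted (range -1.22 to 0.05). Per doubling of transcript length, ad libitum and restricted median slopes were -0.14 and -0.03 in WT and 0.01 and -0.15 in Bmal1LKO. They were 0.13 and 0.14 in CryDKO and 0.09 and 0.11 in ReverbLDKO. With a positive slope, short transcripts read lower. The subunit genes have short transcripts, with a median of 1540 bases against 2848 for all genes, at like median GC content (49.8% against 50.1%). Single members ran from 37.0% GC (Psmc6) to 58.3% (Psmd3). Counts and most values are therefore also given after a smooth trend over GC and transcript length was taken out of every library (9161 genes). Those are called corrected values and were added after the data had been seen. 1 WT ad libitum library, ZT16 replicate 2, lay 1.72 above the mean of all libraries in the median log2 deviation of the 41 genes (0.66 corrected), with the highest FPKM sum. The acinar marker Clps, a pancreas gene, exceeded 1 FPKM in 10 libraries and reached 661 FPKM in WT ad libitum at ZT16. Of the deleted genes, Arntl (Bmal1) had a median of 3.18 FPKM in Bmal1LKO ad libitum against 6.93 in WT, Cry1 had 9.94 in CryDKO against 9.70 in WT, and Nr1d1 had 33.5 in ReverbLDKO against 3.16 in WT. A whole-gene value counts exons outside any deleted part, so these values check nothing of the label for Cry1 and Nr1d1.

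**Figure D1:**
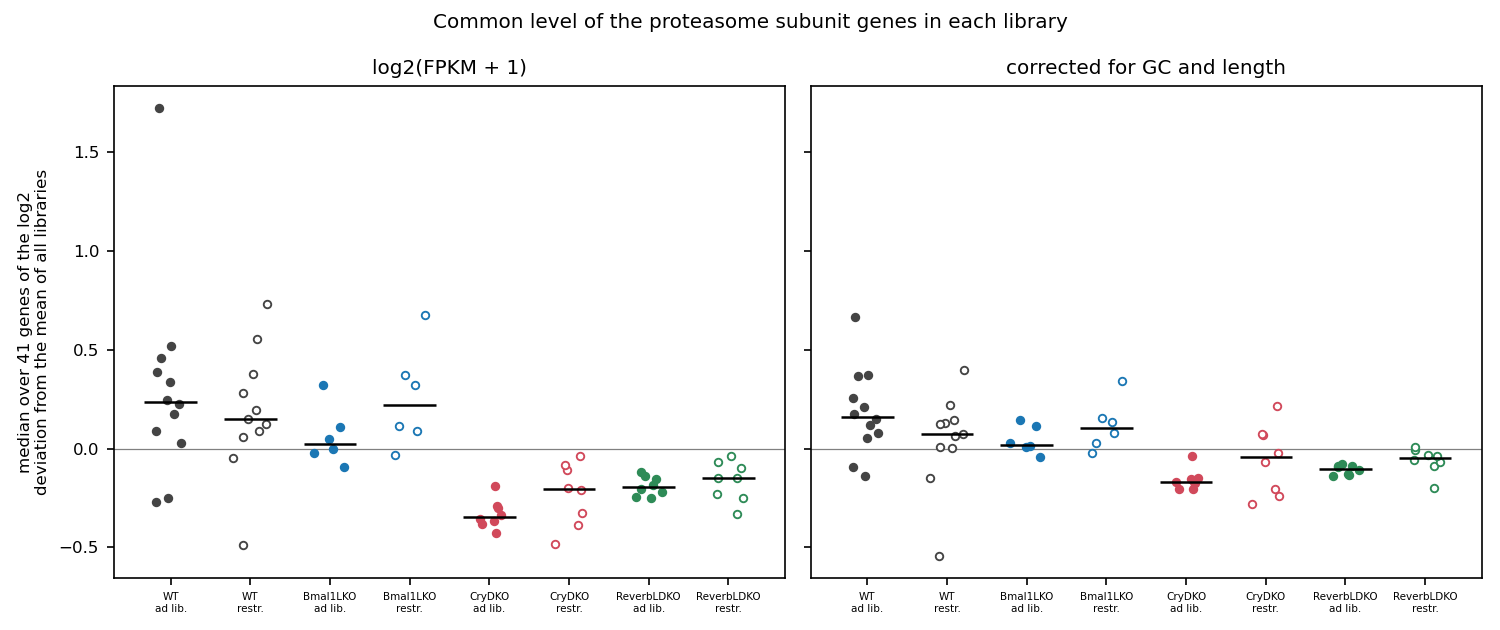
Median log2 deviation of the 41 tested subunit genes in each of 67 libraries from the mean of all libraries, on log2(FPKM + 1) (left) and after correction for GC and length (right). Filled points are ad libitum, open points restricted, and black lines are group medians; WT ad libitum reaches 1.72 (left) and 0.66 (right), while CryDKO ad libitum lies between -0.43 and -0.19 (left).

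Levels of the 41 genes ran over more than an order of magnitude on the per-length FPKM scale. Psmb1, a beta subunit that does not cut, had the highest mean over all libraries at 167 FPKM, followed by the alpha subunit Psma6 at 129 FPKM and the catalytic Psmb7 at 117 FPKM. The lowest means were those of the cap assembly chaperones Psmd9 (5.82 FPKM) and Psmd5 (5.90 FPKM) and of the immunoproteasome subunit Psmb9 (6.04 FPKM). Psma3, an alpha subunit present in every 20S core, averaged only 6.83 FPKM, with an annotated exon length of 3894 bases against 1234 bases for Psma6. FPKM divides by that length, but Psmb1, with the highest mean, has a longer one of 4595 bases. The part of exon length in these levels was not tested. The catalytic pairs differed: Psmb10 had a median of 33.2 FPKM in WT ad libitum, Psmb7 had 119 FPKM, Psmb8 had 20.3 FPKM and Psmb5 had 37.4 FPKM. Exons of 12 members lie over exons of another gene, 11 of them on the opposite strand (Psmb9 shares 212 bases with Tap1 and Psmd9 shares 1849 bases with Gm26745). The libraries were stranded, but whether counting used the strand is not stated, so values of those members are uncertain.

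Restricted against ad libitum feeding in WT addressed whether the level over the day depends on when the diet was eaten. The immunoproteasome genes were lower under restricted feeding. Psmb10, whose product replaces the trypsin-like subunit (chromosome 8, 105935735 to 105938444), ran from 26.7 FPKM over a median of 33.2 to 66.5 in the ad libitum libraries and from 2.31 over 7.59 to 28.0 in the restricted ones. All but 1 restricted library lay below every ad libitum library, the exception being ZT24 replicate 1 at 28.0 FPKM. The log2 difference in 24-h level was -1.98 ± 0.18 (SE; limma with Benjamini-Hochberg adjustment over all genes, adjusted p = 8.7e-13, n = 12 and 11), and -1.31 corrected. Psmb9 ran from 5.36 over 8.06 to 23.1 FPKM ad libitum and from 1.43 over 4.18 to 6.22 FPKM restricted, a difference of -0.97 ± 0.17 (adjusted p = 3.5e-06; -0.45 corrected). Psmb8 ran from 14.0 over 20.3 to 52.3 FPKM and from 4.33 over 12.3 to 23.1 FPKM, a difference of -0.93 ± 0.16 (adjusted p = 3.7e-06; -0.38 corrected). The groups overlapped for Psmb8 and Psmb9. The labels number WT libraries 1 and 2, and the 2 sets gave unlike sizes: Psmb10 was -1.25 with those numbered 1 and -2.63 with those numbered 2, and Psmb8 was -0.35 (adjusted p = 0.12) and -1.43. Immune cells express these subunits without induction, and some markers of such cells moved as well. Of 9 tested markers 5 fell and 1 rose, against 35.4% and 28.6% of all genes. Corrected, 2 fell and 0 rose, against 34.6% and 7.47%. The 12 listed markers summed to a median of 377 FPKM (range 248 to 1108) ad libitum and 337 FPKM (range 147 to 510) restricted. Among those listed, Cd3e was at 0.276 and 0.236 FPKM and Cd79a at 0.306 and 0.128 FPKM. In bulk liver, fewer cells of a type and less RNA per cell cannot be told apart, and the part of these cells in the result was not tested. The mitochondrial transcript mt-Nd6 made up 0.00142% to 0.0136% of the FPKM in the WT ad libitum libraries and 0.0303% to 0.0817% in the restricted ones, so it separated the WT feedings in full, and what it shares with these values was not tested.

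Over the whole family, restricted feeding moved genes both ways. Of 41 genes 14 rose, against 28.6% of all genes, and 14 fell, against 35.4% of all genes, with a median log2 difference of -0.05 (-0.03 over all genes). Corrected, 4 rose (7.47% of all genes) and 22 fell (34.6%), with a median of -0.16 against -0.12 over all genes. The family's medians lay close to those of all genes, and its members differed widely among themselves. Psmb5, the chymotrypsin-like subunit, was -1.28 ± 0.24 (adjusted p = 9.4e-06; -0.55 corrected), with ad libitum libraries from 18.4 over 37.4 to 155 FPKM and restricted ones from 3.35 over 15.9 to 59.7 FPKM. Psmb6, the caspase-like subunit, was -1.03 ± 0.20 (adjusted p = 2.4e-05; -0.38 corrected). With WT libraries numbered 1 alone these were -0.43 (adjusted p = 0.12) and -0.35 (adjusted p = 0.13), so both calls rest on libraries numbered 2. The trypsin-like Psmb7 rose by 0.44 ± 0.12 (adjusted p = 0.0015) and by 0.34 corrected, opposite to the others, but it was -0.16 where exon length in place of the principal transcript was used for the correction. Psmd3, a lid subunit, fell from 18.99 FPKM (7.54 to 25.1) to 8.49 FPKM (2.77 to 18.8), by 1.19 ± 0.14 on the log2 scale (adjusted p = 4.2e-10), and by 0.42 corrected. Psmd9, an assembly chaperone, fell by 0.74 and by 0.64 corrected.

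Among the genes that rose, the direction of some depended on the correction. Psme4, the nuclear activator cap, rose by 0.63 ± 0.12 (adjusted p = 1e-05), and by 0.14 corrected. Psmc6, an ATPase, rose by 0.54 ± 0.16 (adjusted p = 0.0034) but was -0.30 corrected. Psmd10 was 0.45 (-0.02 corrected) and Psma6 was 0.45 (0.24 corrected), and both lost the call when single WT libraries were left out. Psme2, the cap subunit induced by interferon with Psme1, was 0.20 and did not pass, while corrected it rose by 0.50. On uncorrected values, the 5 genes that fell most had a GC content between 55.3% (Psmb9) and 58.3% (Psmd3). The 5 that rose most lay between 37.0% (Psmc6) and 48.7% (Psmb7). Beyond the correction, the part of GC content in this split was not tested. By role, all 3 catalytic immunoproteasome genes fell on both scales, and of the 3 constitutive ones 1 rose and 2 fell on both. Of 7 alpha ring genes 4 rose and 1 fell (Psma7), but corrected 1 rose and 2 fell. Of the 8 lid genes 3 rose and 1 fell, and corrected 0 rose and 4 fell. Of the 6 ATPases 1 rose and 2 fell, and corrected 0 rose and 4 fell. Of the 4 beta subunits without activity 2 fell (Psmb3 and Psmb2), and corrected 3 fell. The balance of calls in the alpha ring and the lid thus turned with the correction, while more ATPases fell than rose on both scales. Over all genes the share that rose also dropped with the correction, from 28.6% to 7.47%, while 35.4% and 34.6% fell. The turn may therefore not be particular to these roles.

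**Figure D2:**
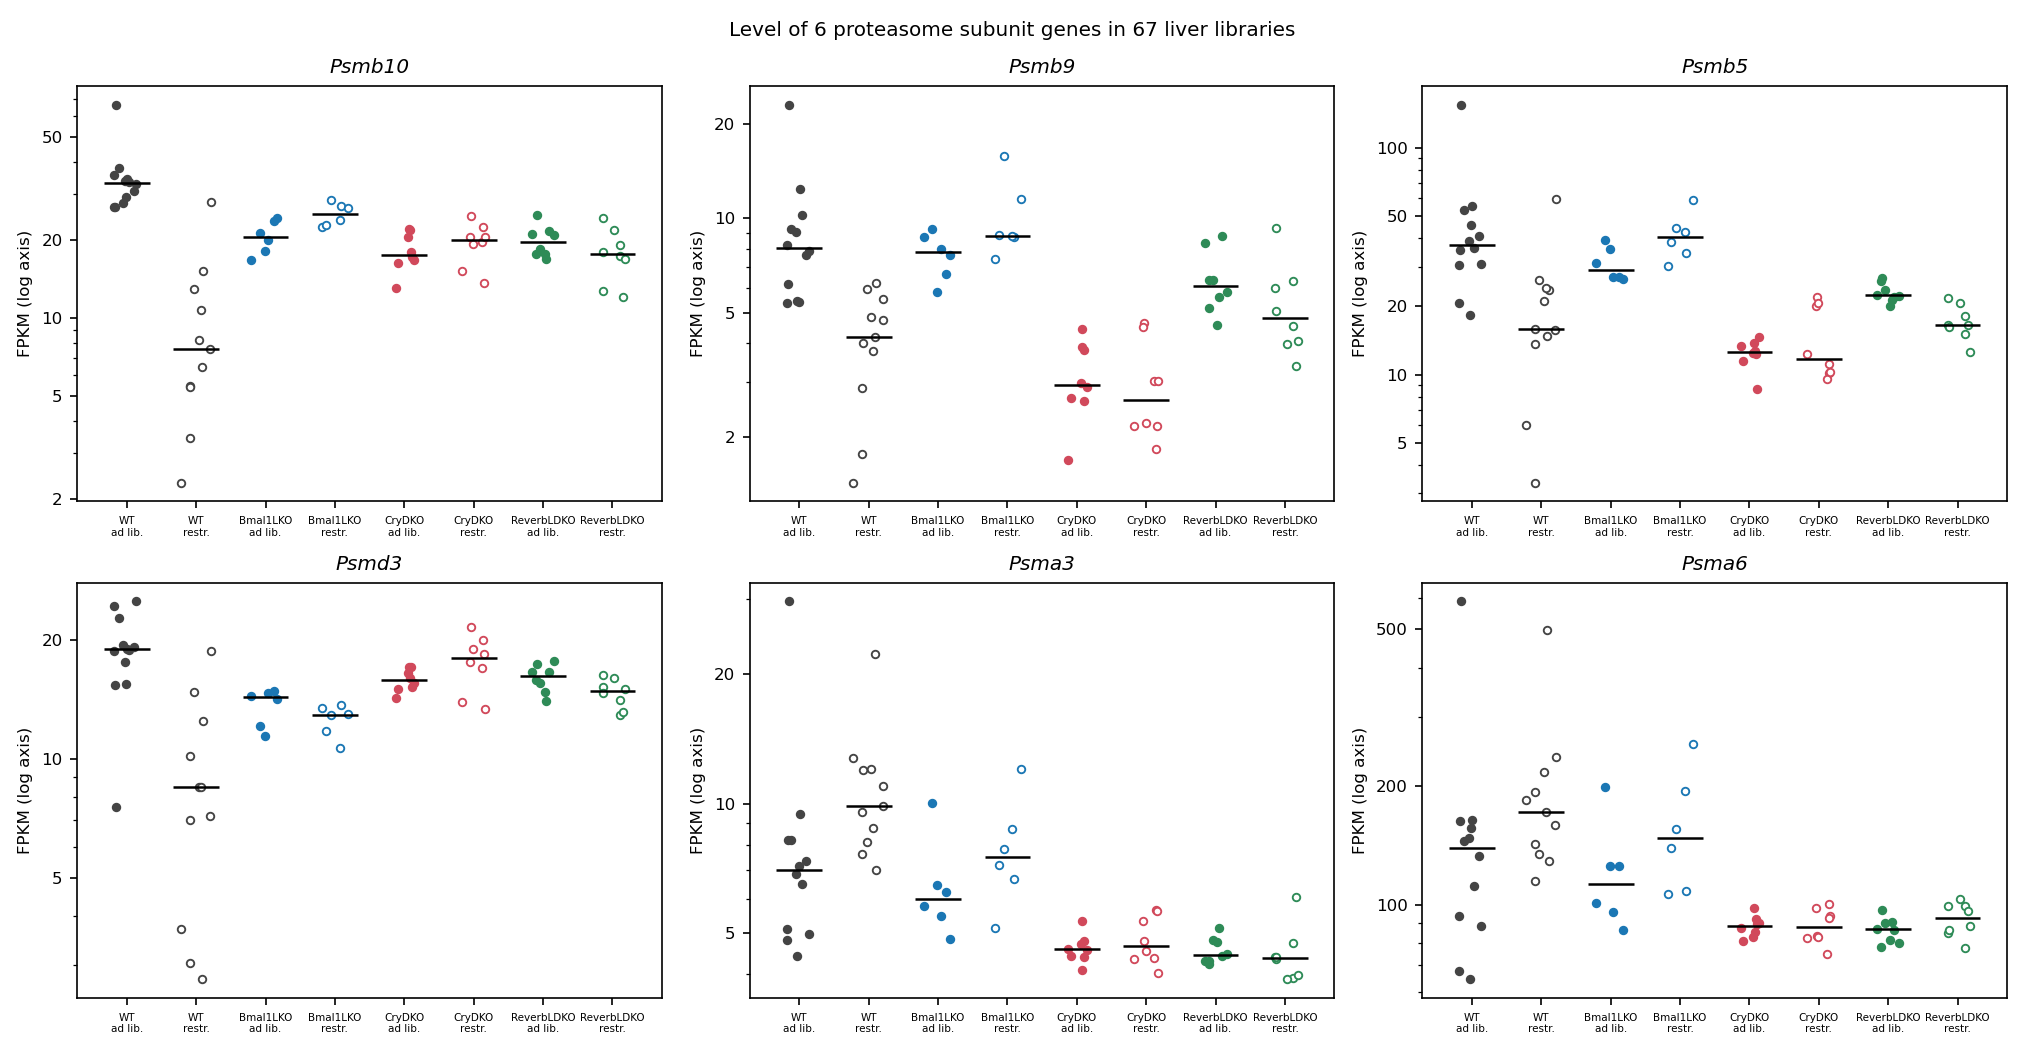
FPKM (log axes) of 6 subunit genes in every library of the 8 groups; filled points ad libitum, open points restricted, black lines group medians. Psmb10 has a median of 33.2 in WT ad libitum and 7.59 in WT restricted, and lies between 12.0 and 28.6 in the mutants; the 4 lowest group medians of Psma3 and Psma6 are those of CryDKO and ReverbLDKO.

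On uncorrected values no subunit gene passed for feeding in any mutant genotype in the fit of all libraries. The limma counts over all genes were 0.0402% in Bmal1LKO, 0.0201% in CryDKO and 3.33% in ReverbLDKO, and at unadjusted p under 0.05 there were 1017, 564 and 1700 genes, of which 0, 1 and 4 were subunits. Corrected, 0 passed in Bmal1LKO (0.207% of all genes) and 0 in CryDKO (0.0218%), and 4 rose in ReverbLDKO (6.90%): the ATPases Psmc1 by 0.24 and Psmc2 by 0.24, the lid subunit Psmd12 by 0.19 and the cap subunit Psme1 by 0.36. In ReverbLDKO mt-Nd6 made up 0.0314% to 0.0501% ad libitum and 0.00259% to 0.00535% restricted, and its part was not tested. The median differences of the 41 genes were 0.23, 0.08 and 0.02. Psmb10 differed by 0.28 (95% interval -0.21 to 0.77) in Bmal1LKO, by 0.09 (-0.34 to 0.51) in CryDKO and by -0.18 (-0.60 to 0.25) in ReverbLDKO. Its medians were 20.6 FPKM ad libitum and 25.1 restricted in Bmal1LKO, 17.5 and 20.02 in CryDKO, and 19.6 and 17.7 in ReverbLDKO, all below the WT ad libitum level and above the WT restricted level. The test of the difference itself, over the 4 genotypes, passed for 16 of 41 subunit genes (47.1% of all genes), and corrected for 22 (28.2% of all genes). All 3 immunoproteasome genes and all 3 constitutive catalytic genes were among the 16, and no alpha ring gene was. Corrected, Psmb9 did not pass (adjusted p = 0.068), the alpha ring gene Psma7 did (0.0497), and ATPases passed for 6 of 6 against 2 uncorrected. Psmb10 (adjusted p = 9.3e-09), Psmd3 (3.4e-06) and Psmb8 (0.00030) had the smallest p. Mutant groups had 1 library at each time, and WT had 2 for most, so fewer mutant libraries bear on each estimate. The fit also shares 1 residual spread over all groups, and WT libraries differed most from one another. P-values within WT may thus be too small, and fewer genes passed for feeding and rhythm in WT with its groups fitted alone. Library weights gave feeding calls in Bmal1LKO and ReverbLDKO, and in ReverbLDKO so did its groups fitted alone and other scalings. Those counts are given at the end.

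Over both feedings, most of the family was lower in CryDKO than in WT. Of 41 genes 34 fell (31.0% of all genes fell) and 2 rose (34.4% of all genes rose), and the median log2 difference was -0.58 against 0.02 over all genes. Corrected, 26 fell (27.2%) and 3 rose (31.6%), with a median of -0.23. Median slopes over transcript length were 0.13 and 0.14 in CryDKO against -0.14 and -0.03 in WT. Beyond the correction, the part of length was not tested. With ad libitum libraries alone 33 fell and 1 rose (3056 and 2465 of 9958 genes). Corrected, these were 29 and 1 (2785 and 1695 of 9161 genes), with a median of -0.32. With restricted libraries alone 22 fell and 2 rose (2765 and 3360 of 9958 genes). Corrected, these were 13 and 7 (1406 and 3103 of 9161 genes), with a median of -0.09. Values that follow are over both feedings unless stated. All 7 alpha ring genes fell, 6 of them corrected. Psma3 had a median of 7.01 FPKM (4.41 to 29.6) in WT ad libitum and 9.85 FPKM (7.01 to 22.3) in WT restricted, against 4.58 FPKM (4.09 to 5.34) and 4.66 FPKM (4.03 to 5.66) in CryDKO. Its highest restricted CryDKO library lay below every restricted WT library, while the ad libitum groups overlapped. The difference was -0.78 ± 0.12 (adjusted p = 3.8e-07; -0.66 corrected). Psma6 fell from 139 FPKM ad libitum and 172 FPKM restricted to 88.1 and 87.9 FPKM (-0.80 ± 0.15, adjusted p = 1.3e-05; -0.30 corrected). All 6 ATPases fell (3 corrected), led by Psmc6 at -0.64. The 3 constitutive catalytic genes fell, Psmb5 most at -0.90 ± 0.19 (adjusted p = 5.5e-05; -0.66 corrected), with 12.6 FPKM (8.67 to 14.6) in CryDKO ad libitum. Of the lid, 6 of 8 fell, among them the deubiquitinase Psmd14 at -0.80 (-0.39 corrected), and the assembly chaperone Psmd10 was -0.83 (-0.38 corrected). Psmd3 rose by 0.49 ± 0.11 (adjusted p = 0.00013; 0.34 corrected), but with ad libitum libraries alone it was -0.17. Psme4 rose by 0.30 (0.13 corrected).

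In CryDKO the immunoproteasome genes did not move together. Psmb9 was -0.78 ± 0.13 (adjusted p = 2.7e-06; -0.57 corrected), with 2.93 FPKM ad libitum and 2.62 FPKM restricted, and Psmb8 was -0.62 (-0.51 corrected), while Psmb10 did not pass (0.17) and rose by 0.33 corrected. Psme1 and Psme2 fell as well, by 0.64 and 0.68 (0.36 and 0.30 corrected). The values depended on feeding. Psmb10 was -0.87 with ad libitum libraries alone and 1.202 with restricted libraries alone, and with restricted libraries alone Psmb8 (-0.06) and Psmb9 (-0.33) did not pass. Of 9 tested immune cell markers 5 fell and 1 rose, against 31.0% and 34.4% of all genes. Corrected, 4 fell and 1 rose, against 27.2% and 31.6%. The 12 listed markers summed to medians of 245 FPKM (197 to 308) ad libitum and 214 FPKM (199 to 292) restricted. The Kupffer cell gene Clec4f did not pass (0.14). The part of these cells in the result was not tested.

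Over both feedings, most subunit genes were also lower in ReverbLDKO than in WT, while the immunoproteasome genes did not pass. Of 41 genes 31 fell (27.7% of all genes) and 2 rose (30.1%), with a median of -0.35 against 0.01 over all genes. Corrected, 23 fell (25.5%) and 4 rose (28.7%), with a median of -0.16. Median slopes over transcript length were 0.09 and 0.11 in ReverbLDKO, also above those of WT, and their part beyond the correction was not tested. With ad libitum libraries alone 30 fell and 1 rose (2382 and 2067 of 9958 genes). Corrected, these were 27 and 1 (2232 and 1593 of 9161 genes), with a median of -0.29. With restricted libraries alone 19 fell and 2 rose (2413 and 2823 of 9958 genes). Corrected, these were 16 and 6 (1419 and 2671 of 9161 genes), with a median of -0.09. Values that follow are over both feedings unless stated. Every alpha ring gene fell on both scales: Psma3 by 0.84 ± 0.12 (adjusted p = 2.2e-07; 0.74 corrected), Psma6 by 0.79 (0.40 corrected), Psma5 by 0.76 (0.42 corrected) and Psma7 by 0.69 (0.35 corrected). Psma3 had 4.44 FPKM (4.23 to 5.14) ad libitum and 4.37 FPKM (3.90 to 6.06) restricted. Of the 6 ATPases 5 fell, of the 8 lid genes 6 fell, and all 4 beta subunits without activity fell. Corrected, 2 ATPases fell, 4 lid genes fell and 2 rose, and 2 of these beta subunits fell. Psmd10 fell by 0.71 (0.37 corrected). No immunoproteasome gene passed: Psmb8 was -0.16, Psmb9 was -0.02 and Psmb10 was 0.16, the last rising by 0.27 corrected. Psmb10 was -0.74 with ad libitum libraries alone and 1.07 with restricted libraries alone. Psme1 and Psme2 fell by 0.47 and 0.55 (0.27 and 0.25 corrected). Psmd3 rose by 0.37 (0.25 corrected) but was -0.16 with ad libitum libraries alone and -0.01 against WT libraries numbered 1. Psme4 rose by 0.30 (0.18 corrected). Of 9 immune markers 2 rose and 3 fell, and corrected 3 rose and 0 fell. The difference between CryDKO and ReverbLDKO was not tested, and both were compared with the same WT libraries. CryDKO and ReverbLDKO shared only ZT12 and ZT24 with the times of WT, and no label gives a batch, so batch and genotype cannot be told apart. Scaling each library to the same FPKM sum moved the median of all genes to 0.16 in CryDKO and 0.21 in ReverbLDKO, and the subunit medians to -0.39 and -0.10.

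**Figure D3:**
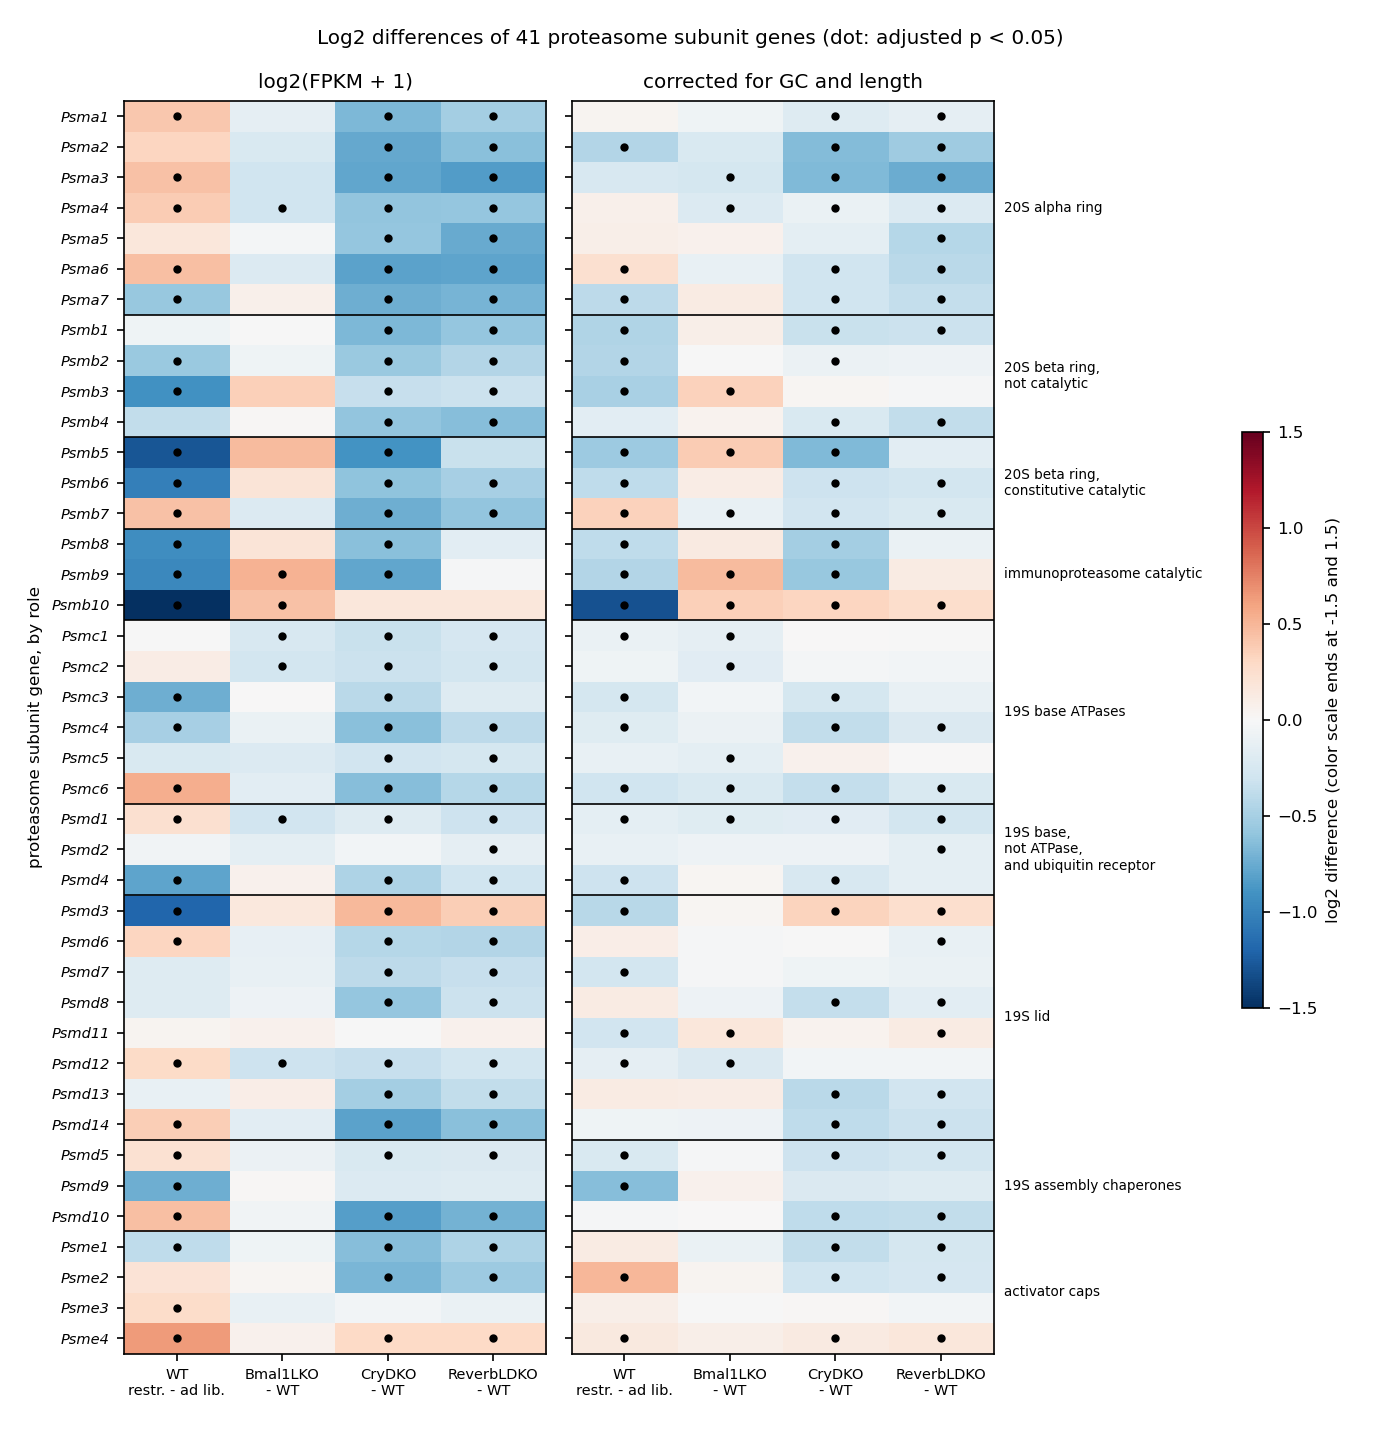
Log2 difference of 41 subunit genes, grouped by role, for feeding in WT and for each mutant against WT, on log2(FPKM + 1) (left) and corrected for GC and length (right); blue is lower, red higher, and dots mark adjusted p under 0.05. In CryDKO 34 genes fell and 2 rose, in ReverbLDKO 31 fell and 2 rose, and in Bmal1LKO 5 fell and 2 rose.

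In Bmal1LKO few subunit genes differed from WT. Of 41 genes 2 rose (19.7% of all genes) and 5 fell (7.65%), with a median of -0.06 against 0.07 over all genes, and corrected 5 rose (27.7%) and 9 fell (7.85%). The pair that rose were immunoproteasome genes, Psmb9 by 0.52 ± 0.15 (adjusted p = 0.0059) and Psmb10 by 0.44 ± 0.16 (adjusted p = 0.029), by 0.47 and 0.35 corrected, and Psmb8 was 0.20. That call came from the restricted libraries. With these alone Psmb10 was 1.57 higher than WT and Psmb9 1.18 higher, and with ad libitum libraries alone they were -0.69 and -0.14. Psmb10 had 16.7 to 24.3 FPKM in ad libitum Bmal1LKO libraries and 22.4 to 28.6 in restricted ones, with the WT levels above and below these. The genes that fell were the lid subunit Psmd12 (-0.31 ± 0.08, adjusted p = 0.0037), Psma4 (-0.30), Psmd1 (-0.29), Psmc2 (-0.28) and Psmc1 (-0.24). Corrected these were -0.21, -0.20, -0.18, -0.17 and -0.14, and each passed. Scaling libraries to the same FPKM sum gave 10 genes higher and 0 lower, with the median of all genes at 0.20, and median-of-ratios scaling gave 1 higher and 11 lower, with that median at 0.01. The balance of directions in Bmal1LKO thus depended on the scaling. Immune cell markers passed for 0 of 9 on both scales.

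Genes that work around the proteasome were counted from lists of assembly factors, transcription regulators, ubiquitin supply and antigen presentation. The shares of all genes that rose and fell are 28.6% and 35.4% for feeding in WT, 34.4% and 31.0% for CryDKO, 30.1% and 27.7% for ReverbLDKO and 19.7% and 7.65% for Bmal1LKO. Corrected, these shares are 7.47% and 34.6%, 31.6% and 27.2%, 28.7% and 25.5%, and 27.7% and 7.85%, in that order. Of 17 assembly and accessory genes, 8 rose and 4 fell with restricted feeding in WT, 1 rose and 9 fell in CryDKO, 2 rose and 7 fell in ReverbLDKO and 1 rose in Bmal1LKO. Corrected, with 15 genes, 2 rose and 4 fell in WT feeding, 3 rose and 5 fell in CryDKO, 3 rose and 6 fell in ReverbLDKO and 4 rose and 1 fell in Bmal1LKO. Pomp, which matures the 20S core, was -0.78 in CryDKO and -0.53 in ReverbLDKO (-0.43 and -0.26 corrected), and the stress-induced proteasome partner Zfand2a was -0.74 and -0.60 (-0.81 and -0.64 corrected). The inhibitor Psmf1 rose by 0.41 in CryDKO (0.33 corrected).

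Of 7 regulators of proteasome gene transcription, 3 rose and 3 fell in WT feeding, 4 rose and 1 fell in CryDKO, 4 rose in ReverbLDKO and 1 fell in Bmal1LKO. Corrected, 1 rose and 1 fell in WT feeding, 4 rose and 1 fell in CryDKO, 3 rose in ReverbLDKO and 1 rose and 2 fell in Bmal1LKO. Nfe2l1 was -0.58 with restricted feeding (-0.28 corrected), 0.45 in CryDKO (0.15 corrected) and 0.27 in ReverbLDKO (0.03 corrected), and its partners Maff and Mafg rose by 0.90 and 0.52 in CryDKO (0.84 and 0.18 corrected). Of 13 ubiquitin genes, 4 rose and 5 fell in WT feeding (the polyubiquitin gene Ubb was -1.20, and -0.82 corrected), 5 rose and 3 fell in CryDKO, 5 rose and 1 fell in ReverbLDKO and 2 rose and 1 fell in Bmal1LKO. Corrected, with 12 genes, these were 1 and 4, 3 and 3, 5 and 1, and 3 and 2. The shuttle gene Ubqln2, which brings ubiquitinated proteins to the proteasome, rose by 0.77 in CryDKO (0.71 corrected) and 0.51 in ReverbLDKO (0.48 corrected). Of 13 antigen presentation genes, 5 rose and 5 fell in WT feeding, 4 rose and 5 fell in CryDKO, 9 rose and 2 fell in ReverbLDKO and 3 rose in Bmal1LKO. Corrected, 0 rose and 2 fell, 3 rose and 4 fell, 8 rose and 2 fell, and 3 rose and 1 fell, in that order. Tap2, a peptide transporter, was -1.23 in WT feeding (-0.67 corrected), and the neighbouring Tap1, which overlaps Psmb9 on the opposite strand, rose by 0.62 in ReverbLDKO (0.41 corrected).

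Marker lists of cell types were counted in the same way, against the same shares of all genes on each scale as the lists above. Of 8 hepatocyte markers, 3 rose and 2 fell in WT feeding, 2 fell in Bmal1LKO, 2 rose and 5 fell in CryDKO and 2 rose and 2 fell in ReverbLDKO. Corrected, 1 rose and 2 fell in WT feeding, 2 fell in Bmal1LKO, and 2 rose and 0 fell in CryDKO and likewise in ReverbLDKO. Of 5 red cell markers, 3 fell in WT feeding, 1 fell in Bmal1LKO, 3 rose and 2 fell in CryDKO and 4 rose in ReverbLDKO, with the same counts corrected. No pancreas acinar marker of 7 passed in these comparisons on either scale.

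A 24-h cosine was fitted in each group to ask whether levels followed a daily rhythm. In WT ad libitum 12 of 41 subunit genes were rhythmic, against 29.7% of all genes, and in WT restricted 8 were, against 20% of all genes. In corrected values the counts were 18 (29.9%) and 16 (18%). Fitted peaks lay between ZT19.7 and ZT4.64 ad libitum and between ZT23.2 and ZT2.64 restricted. Corrected, they lay between ZT20.5 and ZT7.70 ad libitum, and restricted between ZT23.1 and ZT6.02 except for Psme1 at ZT13.9. Psmd11, Psmd2, Psmc2 and Psmd3 passed in both feedings, which is 4 of 41 tested, against 910 of 9958 genes (9.14%). Corrected, 12 of 41 passed in both, against 956 of 9161 genes (10.4%). Psmd11, a lid subunit, had ad libitum 9.89 and 10.8 FPKM at ZT12 and 15.1 and 15.2 FPKM at ZT24, and restricted 8.97 FPKM at ZT12 and 16.5 and 16.4 FPKM at ZT24 (peak to trough 1.43-fold and 1.56-fold, adjusted p = 0.0015 and 0.00036). In both feedings the mean was lowest at ZT12 and highest at ZT24, although single ad libitum libraries at ZT8 and ZT16 were as low as those at ZT12. Psmd2, a base scaffold, had 43.4 and 41.8 FPKM at ZT4 and 31.2 and 29.8 FPKM at ZT12 ad libitum, and 38.2 and 39.3 FPKM at ZT4 and 22.5 FPKM at ZT12 restricted (1.53-fold and 1.55-fold, adjusted p = 0.0038 and 0.0055). Psmd3 reached 1.79-fold and 2.67-fold (adjusted p = 0.043 and 0.0016), but the restricted libraries numbered 2 lay below those numbered 1 at each time with both. No rhythm differed between the WT feedings by test (limma, 0 of 41 and 0% of all genes; unadjusted 882 genes, 2 subunits).

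These rhythm counts changed with single libraries. Leaving out 1 library at a time gave 4 to 19 genes ad libitum and 2 to 15 restricted. The lowest counts came without WT ad libitum ZT4 replicate 1 and without WT restricted ZT12 replicate 2, the sole restricted library at ZT12. Both WT groups held Clps at ZT16, at 661 and 324 FPKM ad libitum and at 205 and 16.8 FPKM restricted, and it was at 0 FPKM in the median library. Without the 10 libraries over 1 FPKM of Clps, 31 genes passed in each WT feeding (28.8% and 41.4% of all genes), and these counts lack ZT16. All 7 tested acinar markers passed for rhythm in WT ad libitum and 0 in WT restricted. The part of pancreas RNA in the rhythm counts was not tested. With each group fitted alone, 0 passed in either. Shares of all genes are given only for the refit without Clps libraries, so the other changes may not be particular to the subunit genes.

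In the clock mutants 0 subunit genes were rhythmic in Bmal1LKO with either feeding (0.0301% of all genes ad libitum and 0.512% restricted), in CryDKO ad libitum (0.0502%) and in ReverbLDKO with either feeding (0.0301% and 3.95%). At unadjusted p under 0.05 there were 0, 0, 0, 0 and 2 subunit genes by limma, in the order given, among 531, 961, 291, 169 and 1550 genes in all. In CryDKO restricted 2 passed, against 7.23% of all genes, and 12 in corrected values, against 18.3%. Psmd2 had 43.5 FPKM at ZT3, 44.2 at ZT6, 28.7 at ZT9, 23.6 at ZT12, 25.03 at ZT15, 39.1 at ZT18, 38.5 at ZT21 and 40.3 at ZT24, low from ZT9 to ZT15 and high otherwise (1.77-fold, peak at ZT1.0, adjusted p = 0.0036). In CryDKO ad libitum the same gene stayed between 27.8 and 34.7 FPKM. Psmd1, its base partner, had a fitted 1.58-fold range with a peak at ZT23.8 (adjusted p = 0.023). Psmd14 followed the same times, at 13.1 to 14.2 FPKM from ZT9 to ZT15 and 25.2 to 30.9 FPKM at the other times (2.33-fold, adjusted p = 0.094; 2.42-fold corrected, adjusted p = 6e-05). The difference in rhythm between the CryDKO feedings was not tested. Leaving out single restricted CryDKO libraries gave 0 to 3 genes, and 0 without the ZT12 library. The restricted CryDKO libraries at ZT9 and ZT24 held 192 and 10.3 FPKM of Clps, and leaving these and the others with Clps out gave 5 genes. No share of all genes is given for these CryDKO refits.

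**Figure D4:**
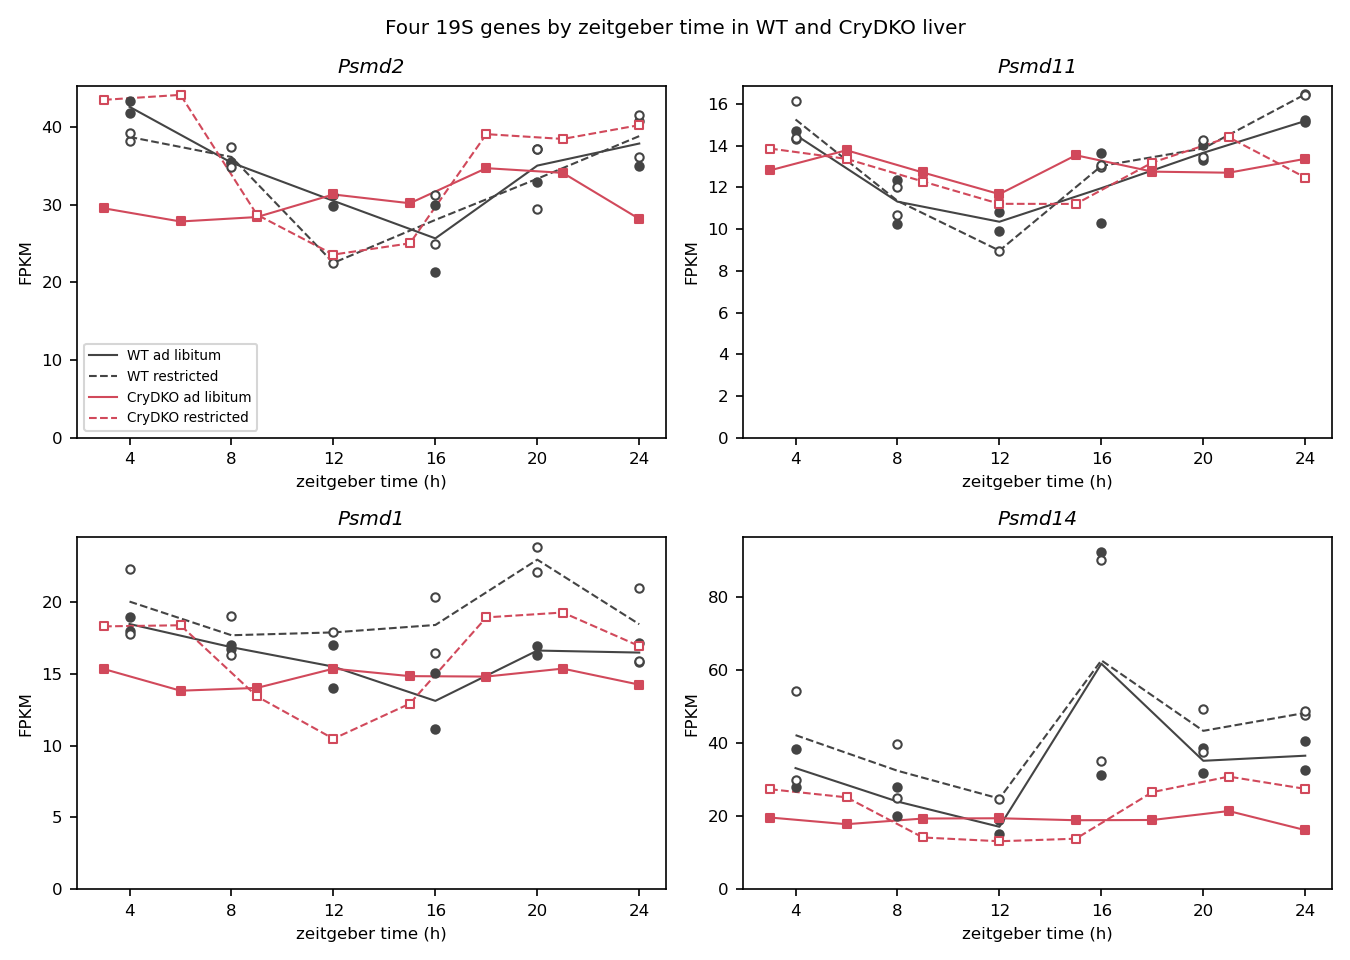
FPKM of 4 genes of the 19S cap by zeitgeber time (h) in WT (circles, grey) and CryDKO (squares, red), filled and solid lines ad libitum, open and dashed lines restricted; lines join the mean at each time. Restricted CryDKO Psmd2 is 23.6 to 28.7 FPKM from ZT9 to ZT15 and 38.5 to 44.2 FPKM at the other times.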

How the data were processed

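RNA of 67 mouse liver samples was sequenced from stranded poly(A) libraries, and the authors deposited 1 table of FPKM values per gene and library. Per the submitters' processing notes, STAR, featureCounts and DESeq2 were used with GRCm38; versions, roles and the strand setting are not stated there. Groups, times and replicate numbers came from the sample titles. The 9958 genes averaging 1 FPKM or more were tested on log2(FPKM + 1) with limma 3.58.1 in R 4.3.3, in 1 fit of all libraries with a level, a cosine and a sine of 24 h for each group; fold changes on that scale understate changes of low genes. P-values were adjusted by Benjamini-Hochberg over all genes tested, with a threshold of 0.05. Low FPKM values were whole multiples of 1 read (within 0.1 reads, up to 20 reads) for 84.0% to 88.0% of values, which gave the depth of 9.14 to 36.1 M reads. Corrected values had a spline of 4 degrees of freedom over GC and log2 length of the principal transcript removed from each library. Promoter sequences came from RefSeq (GRCm38.p6). Alternatives were other scalings, pseudocounts, filters, library weights, subsets of libraries and corrections. Scripts were tested on simulated data. Members may all be named; values are given for up to 5 that passed with the greatest change in each direction, or with the smallest p for rhythm, and up to 4 that passed from each list. The members, the lists of related genes and of cell type markers and the tests were chosen with earlier results of these data known.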

Additional observations from a re-analysis of the deposited data

Results flagged for a closer look

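Of 246 sets of 1 gene in 1 mutant group, 22 held a library far from the others, where chance gives about 1 in 20 and the share over all genes tested was 9.17%. Of the 22, 18 came from 2 libraries, so the sets are not independent. The slope of the log2 deviation from the mean of all libraries per doubling of transcript length was -0.21 in the first of these (Bmal1LKO ad libitum ZT4) and -0.31 in the other (Bmal1LKO restricted ZT20), the lowest of their groups. In Bmal1LKO ad libitum the ZT4 library was highest for 12 genes. Its FPKM, with the next library's in parentheses, was 143 (95.4) for Psma2, 10.01 (6.48) for Psma3, 46.1 (33.5) for Psma4, 24.4 (14.96) for Psma5 and 198 (125) for Psma6. It was 77.5 (61.1) for Psmb2, 17.0 (12.4) for Psmb3, 116 (83.5) for Psmb4 and 110.1 (77.9) for Psmb6. It was 20.1 (13.2) for Psmd10, 35.1 (27.3) for Psmd13 and 31.9 (21.7) for Psme2. In Bmal1LKO restricted the ZT20 library was highest for 6 genes, at 118 (73.4) for Psma1, 81.1 (54.4) for Psmc4, 134 (90.9) for Psmc6, 64.1 (48.1) for Psmd6, 39.8 (34.6) for Psmd12 and 67.001 (38.5) for Psmd14. In CryDKO restricted Psmd10 was highest at ZT3, at 11.9 (9.10). In ReverbLDKO restricted Psma3 was highest at ZT24, at 6.06 (4.72), Psmb2 was highest at ZT15, at 60.6 (51.8), and Psme4 was lowest at ZT15, at 15.5 (18.6).

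The effect of feeding differed between the 4 genotypes for 16 of 41 genes by limma's test of the difference, against 47.1% of all genes. The adjusted p was 9.3e-09 for Psmb10, 3.4e-06 for Psmd3, 0.00030 for Psmb8, 0.00041 for Psmc3, 0.00097 for Psmb9, 0.0012 for Psmb5, 0.0014 for Psme4 and 0.0015 for Psmd9. It was 0.0020 for Psmd4, 0.0022 for Psmb6, 0.0025 for Psmb3, 0.0062 for Psmc4, 0.0077 for Psmb2, 0.032 for Psme3 and Psme1 and 0.047 for Psmb7.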

How the results depend on the processing

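Counts below are of the 41 subunit genes that passed. Shares of all genes under each setting are not given here, so a change may not be particular to the subunit genes. Feeding in WT gave 28, 13 with WT libraries numbered 1 and 18 with the groups compared alone. With the replicate number as a block it gave 28, and 20 with the block and the GC and exon length correction. The difference of replicate 2 from replicate 1 correlated between feedings at 0.40, 0.63, 0.61, 0.54 and -0.29 for ZT4, ZT8, ZT16, ZT20 and ZT24, so numbers were not taken as pairs. Feeding gave 5 with library weights in Bmal1LKO, and in ReverbLDKO 2 with median-of-ratios scaling, 3 with the same sum, 2 with exon correction, 16 with weights, 10 with the groups alone and 4 with principal transcript correction. Bmal1LKO against WT (7) gave 12, 11, 19 and 14 with median-of-ratios, exon correction, weights and principal transcript correction, 17 with WT libraries numbered 2, 15 with the last correction without WT ad libitum ZT16 replicate 2, 18 without Clps libraries and 16 with restricted libraries. ReverbLDKO against WT (33) gave 20 with the same sum and 21 with restricted libraries. The feeding difference (16) gave 28 with the same sum, 37 with weights and 8 with WT libraries numbered 1. Rhythm in WT ad libitum (12) gave 4 with no filter, 36 with weights, 0 alone, 21 with principal transcript correction without ZT16 replicate 2 and 31 without Clps libraries. Rhythm in WT restricted (8) gave 3, 13, 14, 0, 16 and 31 with no filter, the same sum, exon correction, the groups alone, principal transcript correction and no Clps libraries. Rhythm in CryDKO restricted (2) gave 1, 7, 12, 0, 12 and 5 with median-of-ratios, exon correction, weights, the groups alone, principal transcript correction and no Clps libraries. With weights rhythm gave 3 in Bmal1LKO restricted, 1 in CryDKO ad libitum, 1 and 11 in ReverbLDKO, and 2 for the difference between WT feedings. Leaving out 1 library gave 25 to 30 for feeding in WT, 0 to 0 in each mutant, 6 to 10 for Bmal1LKO, 35 to 37 for CryDKO and 30 to 35 for ReverbLDKO against WT, and 14 to 23 for the feeding difference. For rhythm it gave 4 to 19 and 2 to 15 in WT, 0 to 3 in CryDKO restricted and 0 to 0 elsewhere.

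Some genes changed sign; the cause was not tested. For feeding in WT with exon correction, Psmc6 was -0.23, Psmb7 -0.16, Psma3 -0.18, Psma1 -0.023, Psmd14 -0.088, Psmd1 -0.048, Psmd5 -0.16, Psma7 0.13 and Psme1 0.23. With the block added they were -0.24, -0.15, -0.19, -0.030, -0.10, -0.048, -0.16, 0.10 and 0.20 in that order. With principal transcript correction Psmc6 was -0.30, Psmd10 -0.019, Psma3 -0.25, Psmd14 -0.069, Psmd12 -0.13, Psmd1 -0.15, Psmd5 -0.22 and Psme1 0.13. Without ZT16 replicate 2 as well, Psmc6 was -0.24, Psma3 -0.10, Psmd14 -0.0089, Psmd12 -0.12, Psmd1 -0.17, Psmd5 -0.16 and Psme1 0.18. With ad libitum libraries alone Psmb9 was -0.14 and Psmb10 -0.69 in Bmal1LKO against WT, and Psmd3 was -0.17 in CryDKO and -0.16 in ReverbLDKO. In CryDKO Psmc5 was 0.018 with exon correction, and Psmb3 0.030, Psmc1 0.0026 and Psmc5 0.060 with principal transcript correction. Without ZT16 replicate 2 as well, the value for Psmd6, CryDKO against WT, was 0.00059, and Psmb3 was 0.048 and Psmc5 0.057. With restricted libraries alone Psmc3 was 0.020 and Psmb3 0.15. In ReverbLDKO Psmd2 was 0.12 with the same sum, Psmd3 -0.0056 with WT libraries numbered 1 and Psmc5 0.0012 with principal transcript correction. With restricted libraries alone Psmb3 was 0.072 and Psmd4 0.12.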
